A study of Mus musculus with 12 samples.

Results

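The genes described here are the secreted Wnt ligands, the R-spondins that amplify them, their receptors and co-receptors, the extracellular antagonists, the feedback targets and the TCF/LEF transcription factors, 50 genes in all. They were taken as a named set, each read from the probe set that carries its symbol alone and is brightest on average across the 12 arrays. Of the 50 genes, 49 had a value, out of 18194 genes with a symbol, and Tcf7 was not analysed here. A gene was tested where at least 1 group mean lay above 5.183, the median of all log2 signals, which left 42 of these genes among 12788 tested. Signals under 5.183 may be background, so a change to or from such a level may be larger than printed.

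The arrays measured total RNA of mouse neural cells in 6 groups of 2 arrays. All cells were p53-/-, of the BL6 strain, and came from the telencephalon at embryonic day 14.5. NSC are neural stem cells grown as floating spheres without serum, AST are astrocytes obtained from NSC cultures with 10% fetal calf serum for 3 weeks, and OPC are oligodendrocyte precursor cells obtained with PDGFAA and bFGF in 0.25% serum, then enriched by immunopanning. NSCL61, OPCL61 and ASTL61 are GFP-sorted stable lines of these cells, electroporated with pCMS-EGFP-HRasL61, which carries an oncogenic HRas, and pBabe-neo, and selected in 0.5 mg/ml neomycin. The labels do not say that the parents went through electroporation, selection or sorting, so HRasL61 and those steps cannot be told apart. They also do not say that the arrays of a group came from separate cultures, so p-values measure the spread between these arrays, which may be technical.

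Wnt proteins are lipid-modified secreted signals that bind Frizzled receptors together with the co-receptors Lrp5 and Lrp6. The bound complex stops the destruction of beta-catenin, which then enters the nucleus and switches on target genes with TCF/LEF factors. R-spondins bind Lgr receptors and keep Frizzled proteins on the cell surface, while Dkk, Sfrp, Wif1 and Notum proteins restrain the signal outside the cell. Other Wnt signals use the receptors Ror1 and Ror2 and act without beta-catenin. In the developing forebrain the pathway is known for regional patterning and for control of stem cell division, and in the oligodendrocyte lineage for holding precursors back from maturation.

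The 2 arrays of a group differed by an SD over genes of 0.193 in NSCL61 to 0.416 in OPCL61, and in NSC by 0.415. In NSC, 6 of the 42 tested Wnt pathway genes differed by over 1 on the log2 scale between the arrays, the most being Wnt2 by 3.17, against 1 each in OPCL61 and ASTL61 and 0 in the other groups. The arrays labelled NSC were also high in genes of fibroblasts, pericytes and meninges. Of 10 such genes, 9 had an NSC mean above 5.183, with Aldh1a2 below, and their log2 levels summed to 102 and 107 on the NSC arrays. The sums were 52.3 and 52.7 in NSCL61, 45.4 and 46.9 in OPC, 48.9 and 52.5 in OPCL61, 78.3 and 83.4 in AST, and 87.0 and 89.2 in ASTL61. Of 6 precursor markers, all 6 lay above 5.183 in OPC and 5 in OPCL61, where Gpr17 did not, and their log2 levels summed to 61.4 and 63.5 in OPC against 38.2 and 40.4 in OPCL61. Of 7 astrocyte markers, 4 lay above 5.183 in AST, where Aqp4, Aldh1l1 and Slc1a2 did not, and 5 in OPC, which had the highest sums of all groups, 54.0 and 55.7 against 36.7 and 37.1 in AST. Of 6 stem cell markers, 4 lay above 5.183 in NSC, where Prom1 and Fut4 did not, as in OPC, AST and ASTL61, and all 6 in NSCL61. Their log2 levels summed to 31.6 and 34.9 in NSC, the lowest of all groups, and to 49.3 and 49.7 in NSCL61. The sums were 39.65 and 39.85 in OPC, 42.58 and 44.35 in OPCL61, 40.3 and 40.48 in AST, and 40.09 and 40.11 in ASTL61. The part of these differences in the results that follow was not tested. In such bulk samples, fewer cells of a type and less RNA per cell cannot be told apart.

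Each line was set against its parent to ask how the Wnt pathway genes differed once HRasL61 had been introduced. In NSCL61 most of the genes that changed were lower than in NSC, led, with the probe sets used, by the antagonists Sfrp2 and Dkk3 and the R-spondin receptor Lgr4, while the ligand Wnt7b was the largest rise. In OPCL61 the changes ran both ways: the Frizzled receptor Fzd6 and the Wnt-inactivating enzyme Notum rose, and Axin2, Lgr5, Fzd9 and Wif1 fell. In ASTL61 no gene of the set passed the test.

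By limma's moderated test, at an adjusted p of 0.05, 4 of the 42 tested genes were higher and 17 lower in NSCL61 than in NSC. Over all 12788 genes, 20.7% were higher and 17.1% lower. In OPCL61 against OPC, 10 were higher and 8 lower, beside 24.5% higher and 23.8% lower over all genes. The filter favours falls from a group through which a gene entered. Of the NSCL61 falls, Wnt16, Rspo1, Ror1 and Sfrp2 were tested only through NSC. Rspo3 was tested only through ASTL61 and Lgr5 only through OPC, with NSC and NSCL61 means under 5.183. Of the OPCL61 falls, Lgr5 and Wif1 were tested only through OPC. In ASTL61 against AST, 0 were higher and 0 lower by limma, beside 0.0235% higher and 0% lower over all genes. At an unadjusted p of 0.05, 6 were higher and 0 lower there, 14.3% of the set against 7.34% of all genes. The median change of the 42 genes was -0.25 in NSCL61, where that of all genes was 0.04, 0.04 in OPCL61 against 0.05, and 0.06 in ASTL61 against 0.00. Of the 42 genes, 29 passed in at least 1 of these 3 comparisons and 10 passed in both NSCL61 and OPCL61. Over all 12788 genes, 4837 passed in NSCL61, 6181 in OPCL61 and 2769 in both, so passing in at least 1 was common outside the set too. The count of 21 in NSCL61 was smaller without either of its own arrays, and so was the share of all genes called. In every such fit with an array left out, the lone remaining array was assumed to vary like the other groups.

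**Figure D1:**
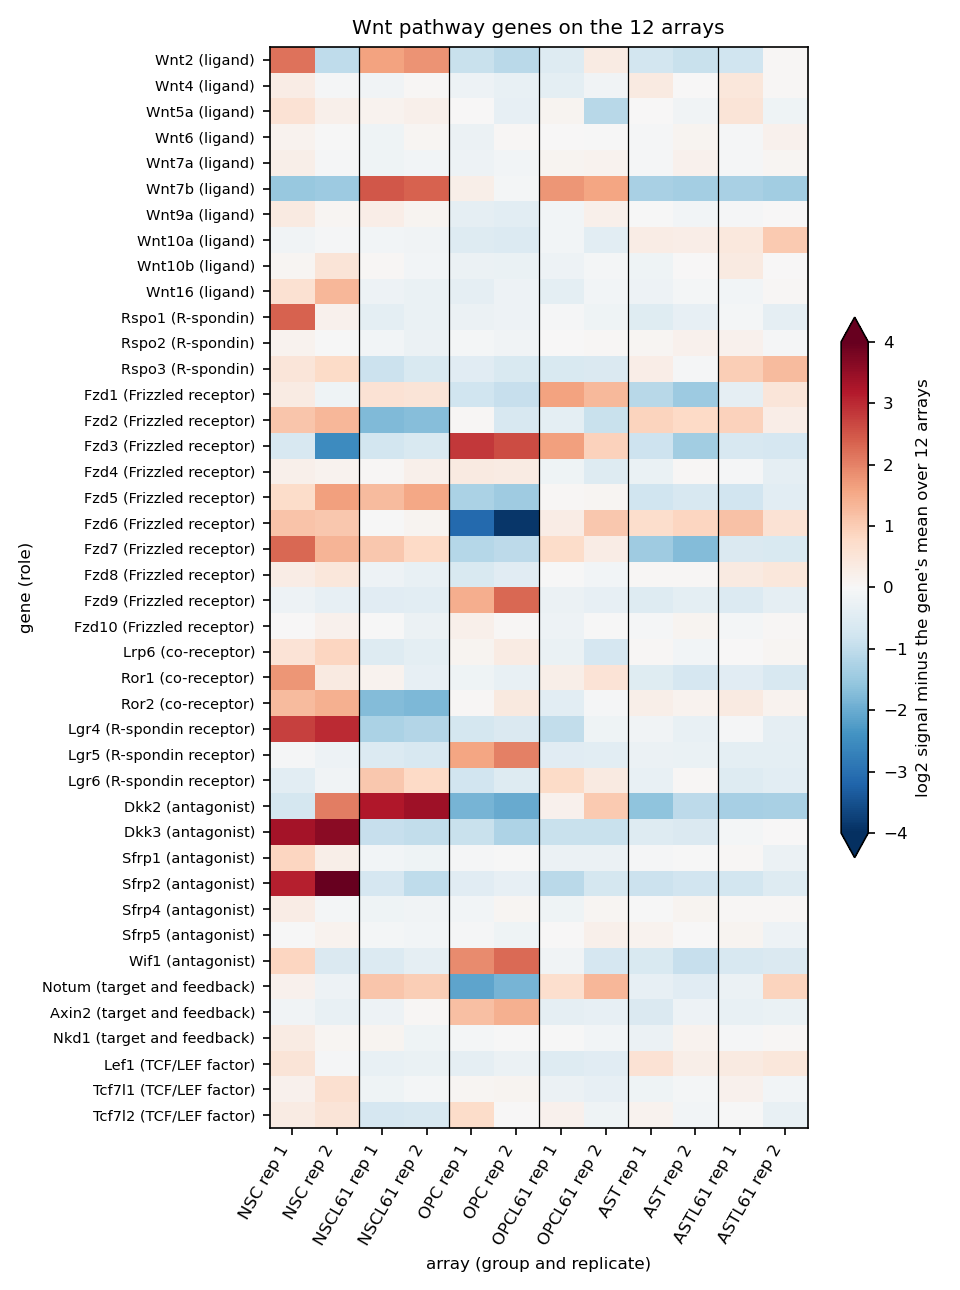
Log2 signal of the 42 tested genes (rows, with their role) on the 12 arrays (columns), each minus the gene's own mean over the arrays, with red above and blue below that mean. Dkk3, Sfrp2 and Lgr4 are red on both NSC arrays, and Fzd3, Fzd9, Lgr5, Wif1 and Axin2 are red on both OPC arrays.

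**Figure D2:**
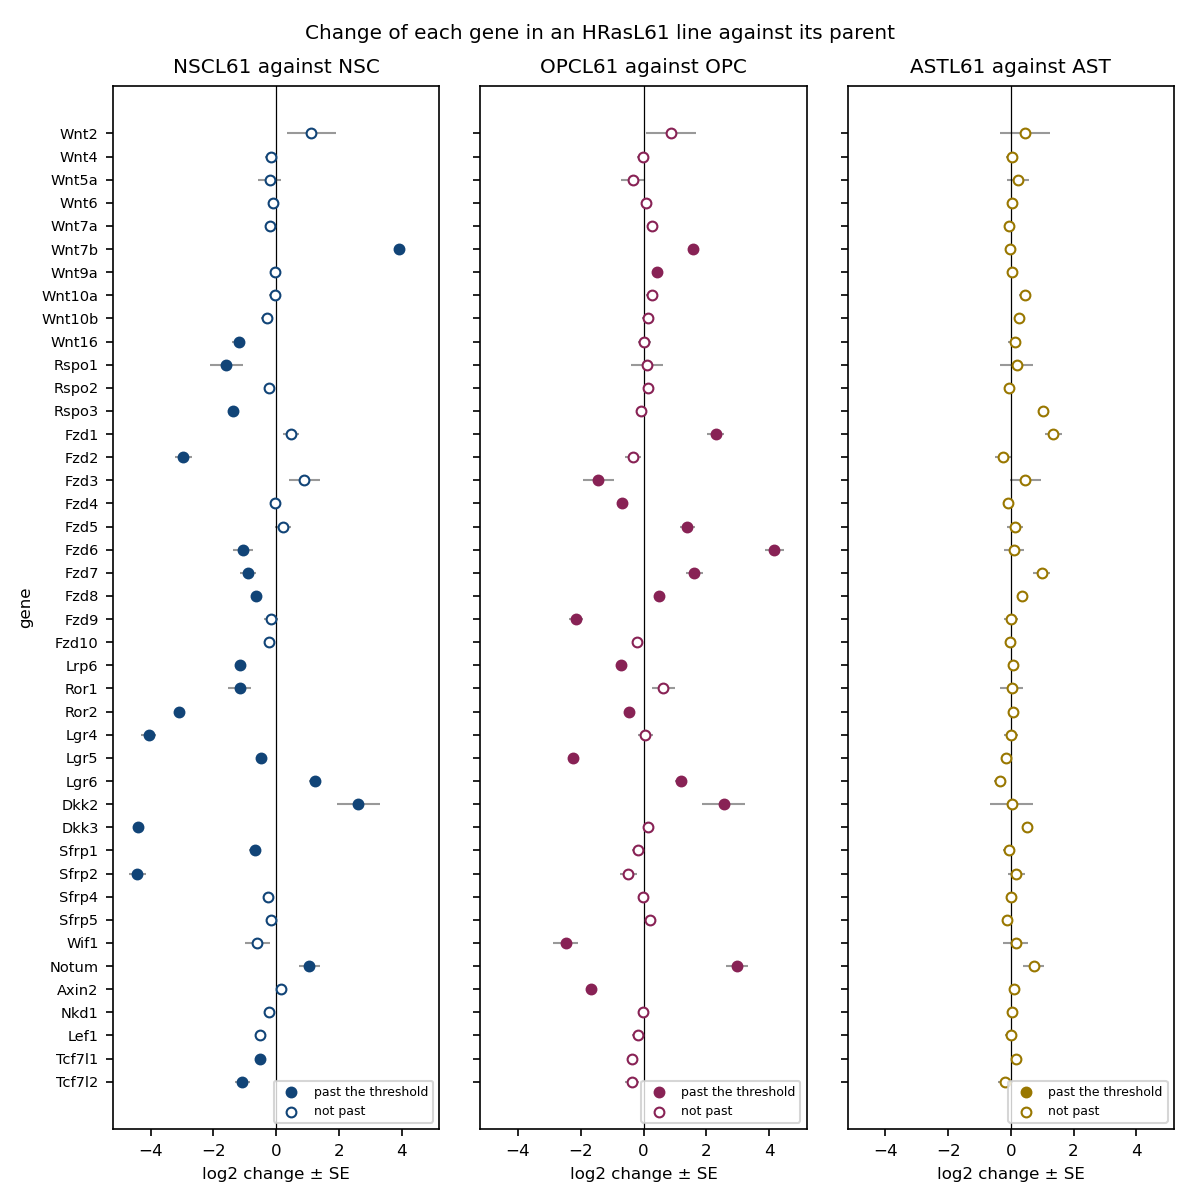
Change of each tested gene in a line against its parent, as the log2 difference of group means with its standard error (horizontal bar), in 1 panel per line, with filled circles past an adjusted p of 0.05. NSCL61 has 21 filled circles, OPCL61 18 and ASTL61 none.

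Among the ligands, Wnt7b had the largest change that passed in both NSCL61 and OPCL61. Its log2 signal was 6.37 and 6.43 in NSC, 10.37 and 10.23 in NSCL61, 8.13 and 7.82 in OPC, 9.64 and 9.45 in OPCL61, 6.60 and 6.51 in AST, and 6.58 and 6.48 in ASTL61. Both arrays of NSCL61 and of OPCL61 lay above those of their parents, and the astrocyte arrays of line and parent overlapped. Wnt7b, a ligand used in forebrain and blood vessel development, rose by 3.90 ± 0.13 (log2 difference ± SE, here and below) in NSCL61 (adjusted p = 1.14e-07) and by 1.57 ± 0.13 in OPCL61 (adjusted p = 1.48e-05). In ASTL61 it was at -0.02, with a 95% interval of -0.32 to 0.28. The rise in NSCL61 was larger than that in OPCL61 by a direct test, with a difference of -2.33 ± 0.19 for OPC minus NSC (adjusted p = 1.75e-05). Parental OPC were already above NSC, by 1.58 ± 0.13 (adjusted p = 9.01e-06). Both tested Wnt7b probe sets gave these directions, with changes of 3.90 and 4.60 in NSCL61 and of 1.57 and 1.64 in OPCL61.

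Wnt16 had signals of 5.57 and 6.29 in NSC and lay between 4.57 and 5.01 on the other 10 arrays. Only NSC thus had a mean above 5.183. The gene, a ligand known from skeletal tissue, fell by 1.20 ± 0.21 in NSCL61 (adjusted p = 0.00186), and was lower in OPC and AST than in NSC as well, at -1.25 ± 0.21 and -1.12 ± 0.21. Wnt9a was low in OPC, at 5.04 and 4.98, and had 5.29 and 5.59 in OPCL61, with 5.30 to 5.77 on the other 8 arrays. It rose by 0.43 ± 0.14 in OPCL61 (adjusted p = 0.0278). That call was lost without OPC replicate 1 (adjusted p = 0.0718), OPC replicate 2 (0.116) or OPCL61 replicate 2 (0.172).

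Wnt10a was highest in the astrocyte groups, with 5.75 and 5.71 in AST and 5.87 and 6.50 in ASTL61. Its signals were 5.29 and 5.4 in NSC, 5.32 and 5.30 in NSCL61, 4.93 and 4.90 in OPC, and 5.35 and 5.02 in OPCL61. OPC lay below AST, at -0.82 ± 0.19 (adjusted p = 0.00544), and no array of those groups overlapped. Wnt10b, a ligand close to Wnt10a in sequence, had 5.78 and 6.22 in NSC, 5.77 and 5.60 in NSCL61, 5.46 and 5.44 in OPC, 5.51 and 5.64 in OPCL61, 5.55 and 5.74 in AST, and 6.08 and 5.73 in ASTL61. It was lower in OPC than in NSC, at -0.54 ± 0.17 (adjusted p = 0.0248), and passed in no line-against-parent comparison. That call was lost without NSC replicate 2 (-0.32, adjusted p = 0.174) or either OPC array (0.0789 and 0.0916).

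Wnt2 passed in no comparison. It had 7.21 and 4.04 in NSC, 6.67 and 6.83 in NSCL61, and 3.96 to 5.36 on the other 8 arrays. NSCL61 lay inside the NSC range, and the change was 1.12 ± 0.79 (adjusted p = 0.307). Without NSC replicate 1 it was 2.71 (adjusted p = 0.00101), and without NSC replicate 2 it was -0.46 (adjusted p = 0.425). Wnt5a, the ligand best known for signalling without beta-catenin, lay between 6.15 and 7.83 over the 12 arrays, Wnt4 between 5.92 and 6.75, and Wnt6 between 5.49 and 5.90, and none of the 3 passed in any of 12 comparisons. For Wnt5a in OPCL61 the change was -0.35, and without OPCL61 replicate 1 it was -0.96 (adjusted p = 0.0269). Wnt2b, Wnt3, Wnt3a, Wnt5b and Wnt11 had no group mean above 5.183 and were not tested, and their arrays ran from 2.55 to 3.05 for Wnt3 and from 4.49 to 5.30 for Wnt11.

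Among the R-spondins, Rspo1 was highest in NSC and Rspo3 in ASTL61. Rspo3 had 4.63 and 4.90 in NSC, 3.28 and 3.51 in NSCL61, 3.69 and 3.53 in OPC, 3.51 and 3.54 in OPCL61, 4.40 and 4.08 in AST, and 5.12 and 5.4 in ASTL61. NSCL61 was thus below NSC and ASTL61 above AST with no overlap, though only ASTL61 had a mean above 5.183. The change in NSCL61 was -1.37 ± 0.16 (adjusted p = 1.82e-04), and the change in ASTL61 was 1.02 ± 0.16 (adjusted p = 0.137), which without ASTL61 replicate 1 was 1.16 (adjusted p = 0.0434). The changes of Rspo3 in the NSC and AST lines differed from each other by 2.39 ± 0.23 (adjusted p = 1.07e-04). Rspo1 had 6.32 and 4.16 in NSC and 3.49 to 3.94 on the other 10 arrays, so its level in NSC rested on replicate 1. Rspo1 fell by 1.59 ± 0.52 in NSCL61 (adjusted p = 0.0368). Its change was -0.51 without NSC replicate 1 and -2.67 without NSC replicate 2, and the call was lost without NSCL61 replicate 1 (adjusted p = 0.143) or 2 (0.111). OPC and AST differed from NSC for Rspo1 by -1.48 and -1.68, and by -0.40 and -0.60 without NSC replicate 1. Rspo2 is described with its second probe set further on.

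Of the 10 Frizzled receptors, which carry the ligand-binding domain, 5 rose and 3 fell in OPCL61, beside 24.5% higher and 23.8% lower over all genes. In NSCL61, 4 of the 10 fell and 0 rose by limma, beside 17.1% lower and 20.7% higher over all genes. Fzd6 had 9.28 and 9.23 in NSC, 8.14 and 8.25 in NSCL61, 5.04 and 4.26 in OPC, 8.43 and 9.21 in OPCL61, 8.85 and 9.02 in AST, and 9.33 and 8.73 in ASTL61. OPC alone was low, with a mean below 5.183, and OPCL61 overlapped the astrocyte arrays. Fzd6, a receptor known for planar polarity of epithelia, rose by 4.17 ± 0.31 in OPCL61 (adjusted p = 6.49e-06) and fell by 1.06 ± 0.31 in NSCL61 (adjusted p = 0.0231). The 2 changes differed by 5.23 ± 0.44 (adjusted p = 2.14e-05), the largest such difference in the set with the probe sets used. The NSCL61 call was lost without any 1 of its 4 arrays, with adjusted p-values of 0.0741 to 0.109.

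Fzd7 and Fzd8 followed the same order, falling in NSCL61 and rising in OPCL61. Fzd7, a receptor known from stem cells, had 9.95 and 9.02 in NSC, 8.72 and 8.44 in NSCL61, 6.50 and 6.60 in OPC, 8.39 and 7.96 in OPCL61, 6.22 and 5.92 in AST, and 7.07 and 7.05 in ASTL61. With this probe set, all 3 lines were free of overlap with their parents. Fzd7 fell by 0.90 ± 0.27 in NSCL61 (adjusted p = 0.0268) and rose by 1.62 ± 0.27 in OPCL61 (adjusted p = 9.66e-04), a difference of 2.53 ± 0.38 (adjusted p = 8.23e-04). In ASTL61 it was at 0.99 ± 0.27 (adjusted p = 0.400). The other tested Fzd7 probe set was at -0.05 in ASTL61, where line and parent overlapped. Tested singly, it did not pass in OPCL61, at 0.47, and fell in NSCL61, at -0.63. The change of Fzd7 in NSCL61 was -0.44 (adjusted p = 0.157) without NSC replicate 1, -1.37 without NSC replicate 2, and missed the threshold without either NSCL61 array (0.0618 and 0.150). Fzd8 had 7.22 and 7.37 in NSC, 6.72 and 6.62 in NSCL61, 6.29 and 6.45 in OPC, 6.90 and 6.81 in OPCL61, 6.96 on both AST arrays, and 7.28 and 7.35 in ASTL61. These shifts were small beside those of Fzd6 but no arrays overlapped: -0.63 ± 0.11 in NSCL61 (adjusted p = 0.00197) and 0.48 ± 0.11 in OPCL61 (adjusted p = 0.00579).

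Fzd1 and Fzd5 rose in OPCL61 and, with the probe sets used, did not pass in NSCL61. Fzd1 had 9.94 and 9.45 in NSC, 10.19 and 10.14 in NSCL61, 8.83 and 8.70 in OPC, 11.23 and 10.91 in OPCL61, 8.50 and 8.16 in AST, and 9.26 and 10.10 in ASTL61. Every line lay above its parent on both arrays, but only the rise of 2.30 ± 0.27 in OPCL61 passed (adjusted p = 1.11e-04). In ASTL61 the change was 1.35, with a 95% interval of 0.75 to 1.96 (adjusted p = 0.279), the largest of any gene of the set in that line, and without ASTL61 replicate 1 it was 1.77 (adjusted p = 0.0217). Fzd5 had 7.34 and 8.23 in NSC, 7.87 and 8.14 in NSCL61, 5.35 and 5.18 in OPC, 6.65 and 6.69 in OPCL61, 5.80 and 5.95 in AST, and 5.85 and 6.18 in ASTL61. Its rise in OPCL61 was 1.40 ± 0.25 (adjusted p = 0.00143), and OPCL61 still lay below NSCL61, at -1.34 ± 0.25 (adjusted p = 0.00425). The changes in OPCL61 exceeded those in NSCL61 by 1.83 ± 0.38 for Fzd1 (adjusted p = 0.00457) and by 1.18 ± 0.36 for Fzd5 (adjusted p = 0.0272). That difference for Fzd5 was 0.74 without NSC replicate 2, and its call was lost without NSCL61 replicate 1, either OPC array or either OPCL61 array (adjusted p-values of 0.0505 to 0.0946). For Fzd5 in NSCL61 the change was 0.22, without NSC replicate 2 it was 0.67 (adjusted p = 0.0277) and without NSC replicate 1 it was -0.22. The other Fzd5 probe set, tested singly, rose by 0.75 ± 0.25 in NSCL61 (adjusted p = 0.0436) and by 0.77 ± 0.25 in OPCL61 (adjusted p = 0.0300), a difference of 0.02 ± 0.36.

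Fzd9 was a gene of OPC in these data. It had 7.20 and 8.02 in OPC and between 5.19 and 5.55 on the other 10 arrays, so OPC stood clear of every other group. Its change in OPCL61 was -2.15 ± 0.22 (adjusted p = 5.23e-05), and OPC exceeded NSC by 2.13 ± 0.22 and AST by 2.32 ± 0.22. Fzd4, a receptor of retinal vessels, had 6.0 and 5.97 in OPC and 5.46 and 5.13 in OPCL61, with 5.83 and 5.78 in NSC, 5.68 and 5.83 in NSCL61, 5.35 and 5.67 in AST, and 5.59 and 5.28 in ASTL61. It fell by 0.69 ± 0.16 in OPCL61 (adjusted p = 0.00618). Fzd2 fell in NSCL61 alone among the line comparisons, and the change there differed from that in OPCL61 by 2.62 ± 0.37 (adjusted p = 5.49e-04). Its signals were 9.78 and 10.01 in NSC, 6.91 and 6.96 in NSCL61, 8.70 and 8.04 in OPC, 8.27 and 7.79 in OPCL61, 9.55 and 9.47 in AST, and 9.58 and 8.94 in ASTL61. NSCL61 was the lowest group, with a change of -2.96 ± 0.26 (adjusted p = 2.99e-05). All 3 tested Fzd2 probe sets fell there, from -2.96 to -3.92. Fzd10 lay between 5.92 and 6.36 on all arrays and passed in no comparison.

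Fzd3, a receptor needed for axon tract formation, was highest in OPC but its probe sets disagreed about the line. The probe set used had 10.20 and 9.98 in OPC, 9.01 and 8.28 in OPCL61, 6.74 and 4.87 in NSC, 6.65 and 6.75 in NSCL61, 6.54 and 5.99 in AST, and 6.74 and 6.71 in ASTL61. It gave a change of -1.44 ± 0.49 in OPCL61 (adjusted p = 0.0363), which was lost without OPC replicate 1, OPC replicate 2 or OPCL61 replicate 2 (adjusted p of 0.137, 0.0944 and 0.188). The other 3 tested probe sets of Fzd3 did not pass in OPCL61, and the highest of their changes was 0.38, of the opposite sign. Their means went from 7.77 to 8.15, from 7.07 to 7.4 and, with the same sign as the probe set used, from 7.75 to 7.56. In NSCL61 the probe set used was at 0.89 ± 0.49 (adjusted p = 0.193), and 1.83 without NSC replicate 1 (adjusted p = 0.00239). Each of the other 3, tested singly, rose there, by 1.13 to 1.69. All 4 were higher in OPC than in NSC, by 1.99 to 4.28.

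Among the co-receptors, with the probe sets used, Lrp6 and Ror2 fell in both lines and Ror1 in NSCL61. Lrp6, the co-receptor that carries the signal toward beta-catenin, had 8.31 and 8.63 in NSC, 7.26 and 7.39 in NSCL61, 7.89 and 8.12 in OPC, 7.51 and 7.10 in OPCL61, 7.82 and 7.66 in AST, and 7.80 and 7.85 in ASTL61. Neither line overlapped its parent for Lrp6, with changes of -1.14 ± 0.17 in NSCL61 (adjusted p = 6.97e-04) and -0.71 ± 0.17 in OPCL61 (adjusted p = 0.00684). The OPCL61 call was lost without OPC replicate 2 (adjusted p = 0.0563) or OPCL61 replicate 2 (0.0503). The other tested Lrp6 probe set, tested singly, fell in NSCL61, at -0.60, and did not pass in OPCL61, at -0.35. Lrp5, a close relative of Lrp6, lay between 4.09 and 4.65 and was not tested.

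Ror2, a receptor tyrosine kinase for Wnt5a, had 7.53 and 7.70 in NSC, 4.55 and 4.49 in NSCL61, 6.33 and 6.66 in OPC, 5.84 and 6.23 in OPCL61, 6.50 and 6.41 in AST, and 6.64 and 6.43 in ASTL61. NSCL61 alone had a mean below 5.183. The change was -3.10 ± 0.17 in NSCL61 (adjusted p = 1.48e-06) and -0.46 ± 0.17 in OPCL61 (adjusted p = 0.0429), and the difference of 2.64 ± 0.23 between them passed (adjusted p = 3.04e-05). The call of Ror2 in OPCL61 was lost without OPC replicate 2 (-0.30, adjusted p = 0.262) or OPCL61 replicate 1 (-0.26, adjusted p = 0.255). Ror1 had 6.30 and 4.90 in NSC, 4.66 and 4.20 in NSCL61, 4.36 and 4.24 in OPC, 4.76 and 5.09 in OPCL61, 4.04 and 3.85 in AST, and 4.06 and 3.88 in ASTL61. Its change of -1.17 ± 0.37 in NSCL61 (adjusted p = 0.0317) rested on NSC replicate 1, without which it was -0.47 (adjusted p = 0.144). It was -1.87 without NSC replicate 2, and the call was lost without either NSCL61 array (0.0590 and 0.178).

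The 3 Lgr receptors for R-spondins each had a pattern of their own. Lgr4 had 10.51 and 10.74 in NSC, 6.51 and 6.59 in NSCL61, 7.07 and 7.18 in OPC, 6.79 and 7.59 in OPCL61, 7.64 and 7.48 in AST, and 7.72 and 7.42 in ASTL61. NSC was far above every other group, and OPC lay inside the OPCL61 range. Lgr4 fell by 4.07 ± 0.23 in NSCL61 (adjusted p = 2.18e-06), with 0.06 ± 0.23 in OPCL61 and 0.01 ± 0.23 in ASTL61. The changes in the OPC and AST lines differed from that in NSCL61, by 4.13 ± 0.33 and 4.08 ± 0.33 (adjusted p = 1.57e-05 and 3.67e-05).

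Lgr5, a receptor that is also a Wnt target and marks stem cells of the gut, had 6.4 and 6.84 in OPC and between 4.18 and 4.78 elsewhere. OPC was the single group above 5.183. The change in OPCL61 was -2.24 ± 0.14 (adjusted p = 2.66e-06). In NSCL61 it was -0.48 ± 0.14 (adjusted p = 0.0253), between 4.78 and 4.63 in NSC and 4.27 and 4.18 in NSCL61, all below 5.183, and the call was lost without NSC replicate 1 (0.118) or either NSCL61 array (0.0763 and 0.132). Lgr6 went the other way. It had 5.48 and 5.78 in NSC, 7.0 and 6.70 in NSCL61, 5.14 and 5.41 in OPC, 6.67 and 6.27 in OPCL61, 5.63 and 5.96 in AST, and 5.4 and 5.5 in ASTL61. Both lines stood above their parents without overlap, with rises of 1.22 ± 0.19 in NSCL61 (adjusted p = 0.00109) and 1.20 ± 0.19 in OPCL61 (adjusted p = 7.84e-04). A second probe set of Lgr6 rose by 2.82 and 2.59.

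With the probe sets used, the antagonists Sfrp2 and Dkk3 had the largest falls in NSCL61. Sfrp2, a secreted Frizzled-like decoy, had 7.23 and 8.18 in NSC and 3.05 to 3.79 on the other 10 arrays, so NSC was the only group above 5.183. It fell by 4.43 ± 0.27 in NSCL61 (adjusted p = 3.50e-06), and OPC and AST differed from NSC by -3.98 ± 0.27 and -4.39 ± 0.27. Dkk3, a member of the Dickkopf family, had 9.35 and 9.64 in NSC, 5.10 and 5.05 in NSCL61, 5.14 and 4.79 in OPC, 5.12 on both OPCL61 arrays, 5.49 and 5.45 in AST, and 5.95 and 6.03 in ASTL61. Its change in NSCL61 was -4.42 ± 0.14 (adjusted p = 7.83e-08), and NSC alone was high. In ASTL61 the change of Dkk3 was 0.52 ± 0.14 (adjusted p = 0.394) with no overlap between line and parent. A second Dkk3 probe set, the one with the highest group mean, gave 1.28 ± 0.16, from 4.61 ± 0.08 to 5.89 ± 0.14 (mean ± SD, n = 2). By limma it passed narrowly when every gene was read from such a probe set, a choice made after seeing the data (adjusted p = 0.0494). When all probe sets were tested singly, it did not pass. These falls of Sfrp2, Dkk3, Lgr4, Ror2 and Fzd2 were between NSC, where the fibroblast and meningeal genes summed to 102 and 107, and NSCL61, where they summed to 52.3 and 52.7, and the part of those genes in the falls was not tested.

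Dkk2, which blocks or activates signalling through Lrp6 depending on its partners, had 4.86 and 7.61 in NSC, 8.77 and 8.94 in NSCL61, 3.70 and 3.55 in OPC, 5.74 and 6.62 in OPCL61, 3.94 and 4.51 in AST, and 4.23 and 4.27 in ASTL61. It was higher on both arrays of NSCL61 and OPCL61 than in their parents, and stayed below 5.183 in the astrocyte groups. The rises were 2.62 ± 0.69 in NSCL61 (adjusted p = 0.0146) and 2.55 ± 0.69 in OPCL61 (adjusted p = 0.0129). The NSCL61 rise was 1.25 without NSC replicate 1 and 4.0 without NSC replicate 2, and missed the threshold without either NSCL61 array (0.0616 and 0.0728). The OPCL61 rise missed it without OPC replicate 2 (0.0634) or OPCL61 replicate 2 (0.0800). Dkk1 lay between 3.37 and 4.20 and was not tested. Sfrp4 lay between 6.43 and 6.88 and Sfrp5 between 5.81 and 6.20, and neither passed anywhere.

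Wif1, a secreted protein that binds Wnt ligands, had 5.30 and 5.68 in OPC, 4.29 and 2.86 in NSC, and 2.51 to 3.27 on the other 8 arrays. OPC was the one group above 5.183. Wif1 fell by 2.48 ± 0.39 in OPCL61 (adjusted p = 6.22e-04), and OPC exceeded NSC by 1.91 ± 0.39, or 1.20 without NSC replicate 2, and AST by 2.82 ± 0.39. In NSCL61 the change was -0.60 ± 0.39, and -1.32 without NSC replicate 2 (adjusted p = 0.00542). Sfrp1 had 7.03 and 6.41 in NSC, and 5.92 to 6.20 elsewhere, with 6.06 and 6.0 in NSCL61. It fell by 0.69 ± 0.18 in NSCL61 (adjusted p = 0.0145). The call was lost without NSC replicate 1 (-0.38, adjusted p = 0.0726) or either NSCL61 array (0.0619 and 0.0765), while all 5 of its probe sets, tested singly, fell, with changes from -0.69 to -3.38.

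**Figure D3:**
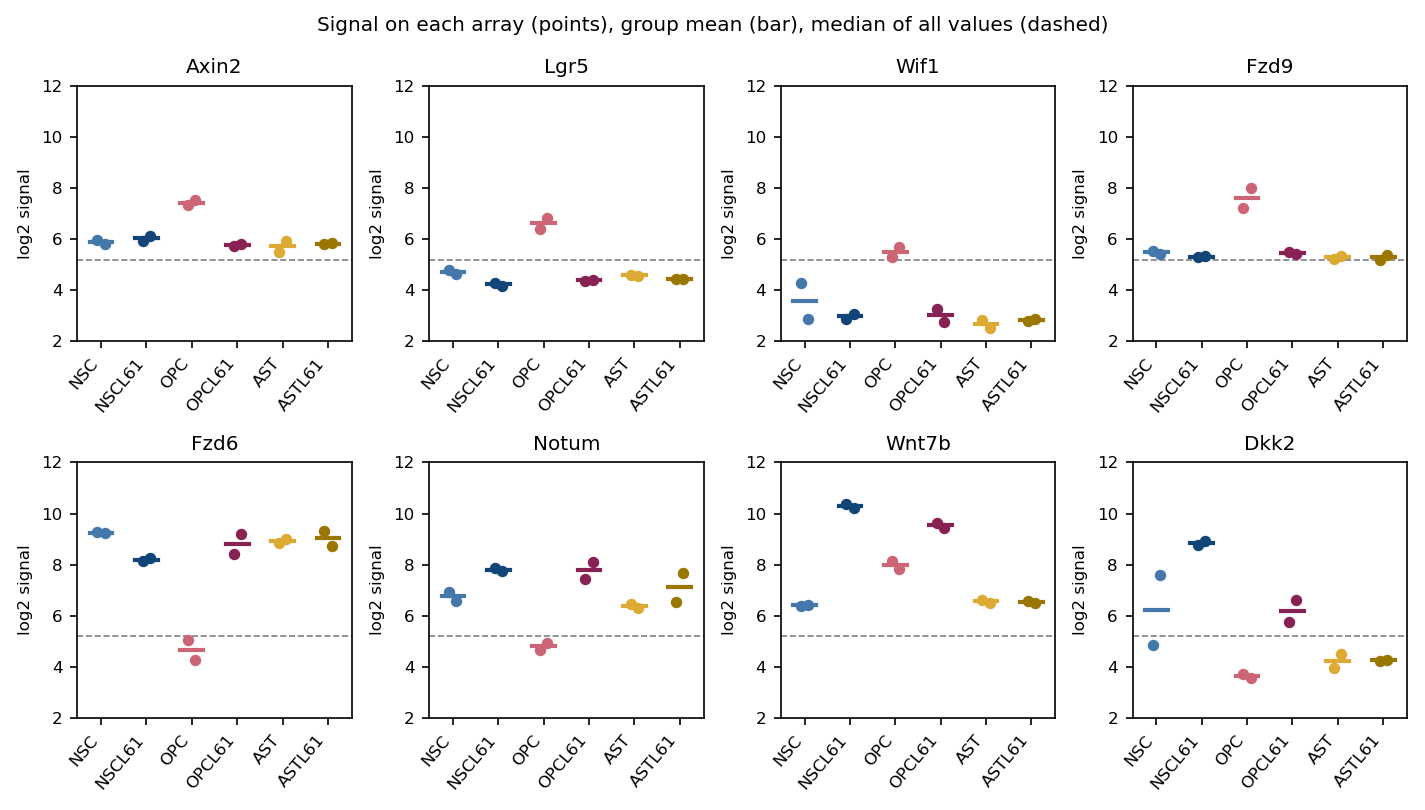
Log2 signal of 8 genes (1 panel each) on every array, with points for arrays, bars for the means of 2 arrays and a dashed line at 5.183, the median of all values. Axin2, Lgr5, Wif1 and Fzd9 are high in OPC alone, Fzd6 and Notum are low in OPC alone, and Wnt7b and Dkk2 are higher in NSCL61 and OPCL61 than in their parents.

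Feedback targets did not move as a block. Axin2, a scaffold of the beta-catenin destruction complex and a widely used Wnt target, had 7.32 and 7.52 in OPC, 5.73 and 5.79 in OPCL61, 5.97 and 5.81 in NSC, 5.91 and 6.14 in NSCL61, 5.51 and 5.91 in AST, and 5.80 and 5.83 in ASTL61. Only OPC stood apart. Axin2 fell by 1.66 ± 0.15 in OPCL61 (adjusted p = 2.66e-05), and OPC exceeded NSC by 1.53 ± 0.15 and AST by 1.71 ± 0.15. In NSCL61 the change was 0.14, with a 95% interval of -0.21 to 0.48, and in ASTL61 0.10, from -0.24 to 0.45. The fall in OPCL61 differed from both, by -1.79 ± 0.22 (adjusted p = 2.12e-04) and -1.76 ± 0.22 (adjusted p = 3.35e-04). Between the same arrays the summed log2 level of the 6 precursor markers went from 61.4 and 63.5 in OPC to 38.2 and 40.4 in OPCL61, beside the falls of Axin2, Lgr5, Fzd9 and Wif1. That of the 7 astrocyte markers went from 54.0 and 55.7 to 40.1 and 41.2. The part of either list in these falls was not tested.

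Notum, an enzyme that removes the lipid from Wnt proteins and is itself a Wnt target, had 6.93 and 6.58 in NSC, 7.87 and 7.74 in NSCL61, 4.66 and 4.92 in OPC, 7.44 and 8.11 in OPCL61, 6.45 and 6.30 in AST, and 6.54 and 7.67 in ASTL61. It was low in OPC and above its parent on every array of the 3 lines. The rise was 2.98 ± 0.34 in OPCL61 (adjusted p = 9.14e-05) and 1.05 ± 0.34 in NSCL61 (adjusted p = 0.0348), with 0.73 ± 0.34 in ASTL61 (adjusted p = 0.696). The NSCL61 call was lost without any 1 of the 4 arrays (adjusted p-values of 0.0563, 0.161, 0.145 and 0.101). Notum and Axin2, both targets, thus changed in opposite directions in OPCL61.

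To show the DNA next to the start of genes that were high in OPC, 250 bases upstream of the transcription start are printed for Axin2, for Nkd1, an inhibitor of Dishevelled and a Wnt target whose second probe set is described further on, and for Wif1. The sequences are from RefSeq, build GRCm38.p6, 5′ to 3′ on the strand of the gene. Capitals mark CTTTG, the core of the TCF/LEF motif, on either strand. Axin2 lies at chr11:108920099-108920348 (plus strand), Nkd1 at chr8:88527383-88527632 (plus strand) and Wif1 at chr10:121033754-121034003 (plus strand).
Axin2: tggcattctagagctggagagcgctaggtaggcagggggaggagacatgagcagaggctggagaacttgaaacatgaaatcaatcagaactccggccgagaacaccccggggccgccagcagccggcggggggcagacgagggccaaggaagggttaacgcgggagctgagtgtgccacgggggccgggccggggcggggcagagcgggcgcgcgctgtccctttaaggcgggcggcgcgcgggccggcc
Nkd1: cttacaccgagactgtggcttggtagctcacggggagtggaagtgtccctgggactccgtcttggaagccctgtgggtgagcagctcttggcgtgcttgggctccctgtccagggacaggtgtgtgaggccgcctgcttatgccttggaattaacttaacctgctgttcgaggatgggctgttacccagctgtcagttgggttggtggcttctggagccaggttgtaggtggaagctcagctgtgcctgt
Wif1: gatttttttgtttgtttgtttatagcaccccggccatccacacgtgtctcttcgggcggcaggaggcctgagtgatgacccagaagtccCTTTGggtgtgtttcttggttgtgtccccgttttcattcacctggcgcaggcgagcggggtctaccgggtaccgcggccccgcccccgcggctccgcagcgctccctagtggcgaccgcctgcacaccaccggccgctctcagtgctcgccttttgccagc

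The TCF/LEF motif searched was CTTTGAT on both strands. None of the 3 windows held it, and Wif1 held the 5-base core once. The windows of 1 chromosome were left out, both for the Wnt pathway genes and for all genes. With these left out, promoter entries were found for 34 of the 50 genes, in 42 windows. The motif stood in 2 of the 42, 4.76%, namely in 1 window each of Wnt5b and Wnt11, against 3.21% of 32851 windows of all genes. The core CTTTG, which was chosen after the motif had been searched, stood in 45.2% against 48.6%. The windows of the Wnt pathway genes had a median GC content of 66.4% against 52.4% over all windows. GC content was 69.2% for Axin2, 58.4% for Nkd1 and 62.8% for Wif1. A missing match says only that these letters are not in this window.

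Of the TCF/LEF factors, Tcf7l2 and Tcf7l1 fell in NSCL61, and with the probe sets used none passed in OPCL61. Tcf7l2 had 7.53 and 7.71 in NSC, 6.53 and 6.55 in NSCL61, 7.92 and 7.22 in OPC, 7.38 and 7.03 in OPCL61, 7.34 and 7.08 in AST, and 7.18 and 6.90 in ASTL61. It fell by 1.08 ± 0.23 in NSCL61 (adjusted p = 0.00473), with no overlap, and all 3 tested probe sets fell there. In OPCL61 it was at -0.37, and without OPC replicate 2 at -0.72 (adjusted p = 0.0255). Tcf7l1, which mainly represses targets, had 7.79 and 8.24 in NSC, 7.43 and 7.54 in NSCL61, 7.69 and 7.72 in OPC, 7.39 and 7.29 in OPCL61, 7.44 and 7.55 in AST, and 7.78 and 7.51 in ASTL61. Its change in NSCL61 was -0.53 ± 0.16 (adjusted p = 0.0252), lost without NSC replicate 2 (-0.31, adjusted p = 0.174) or either NSCL61 array (0.135 and 0.0713). A second Tcf7l1 probe set fell by 1.02 ± 0.29 in OPCL61 (adjusted p = 0.0154, tested singly) and by 2.04 ± 0.29 in NSCL61 (adjusted p = 5.28e-04). Lef1 had 6.23 and 5.67 in NSC, 5.43 and 5.45 in NSCL61, 5.36 and 5.48 in OPC, 5.21 and 5.27 in OPCL61, 6.28 and 5.95 in AST, and 6.06 and 6.15 in ASTL61. It was lower in OPC than in NSC and AST, at -0.53 ± 0.18 and -0.69 ± 0.18. The first of these calls was lost without NSC replicate 1 (-0.25, adjusted p = 0.252) or either OPC array (0.143 and 0.0754), and was -0.81 without NSC replicate 2. The second was lost without OPC replicate 1 (0.0570) or AST replicate 1 (0.0805). Its change in NSCL61 was -0.51 ± 0.18 (adjusted p = 0.0504), and -0.79 without NSC replicate 2 (adjusted p = 0.00683).

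In 8 genes the probe set brightest on average was not the one with the highest group mean, which was seen after the values had been examined. For 4 of them the probe set used was nearly flat while another moved far. Rspo2, an R-spondin, had 5.09 to 5.51 on the 12 arrays with the probe set used. Its other probe set had 10.27 and 10.16 in NSC and 3.97 to 4.93 elsewhere, and fell by 6.06 ± 0.11 in NSCL61 (adjusted p = 2.50e-09, over all probe sets tested singly). NSC alone was high by that probe set.

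Nkd1 had 5.41 to 5.98 with the probe set used, and passed in no comparison. Another had 7.91 and 8.88 in OPC, 3.59 and 3.75 in OPCL61, and 3.52 to 4.0 on the other 8 arrays, so OPC alone was high, as for Axin2. That probe set fell by 4.72 ± 0.26 in OPCL61 (adjusted p = 8.50e-07), and 1 more fell by 3.19 ± 0.17 (adjusted p = 7.90e-07). Wnt7a, a forebrain ligand related to Wnt7b, had 6.79 to 7.24 with the probe set used. A second had 8.51 and 8.17 in OPC, 5.66 and 6.56 in OPCL61, 5.10 and 6.54 in AST, and 4.77 to 5.35 on the NSC, NSCL61 and ASTL61 arrays. It fell by 2.23 ± 0.41 in OPCL61 (adjusted p = 0.00160), while the probe set used was at 0.28. Sfrp1 had 1 further probe set with 8.84 and 7.27 in NSC, 5.54 and 5.32 in NSCL61, 7.31 and 6.86 in OPC, and 5.43 and 5.34 in OPCL61, which fell by 2.63 ± 0.41 in NSCL61 (adjusted p = 0.00101) and by 1.70 ± 0.41 in OPCL61 (adjusted p = 0.00733). With the probe set of the highest group mean for every gene, 4 of the 42 were higher and 18 lower in NSCL61, 10 higher and 12 lower in OPCL61, and 1 higher and 0 lower in ASTL61. Over the 12836 genes tested that way, 38.4% were called in NSCL61, 49.2% in OPCL61 and 0.0467% in ASTL61, in either direction. Which probe set reads the transcript of Rspo2, Nkd1, Wnt7a and Sfrp1 was not tested.

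**Figure D4:**
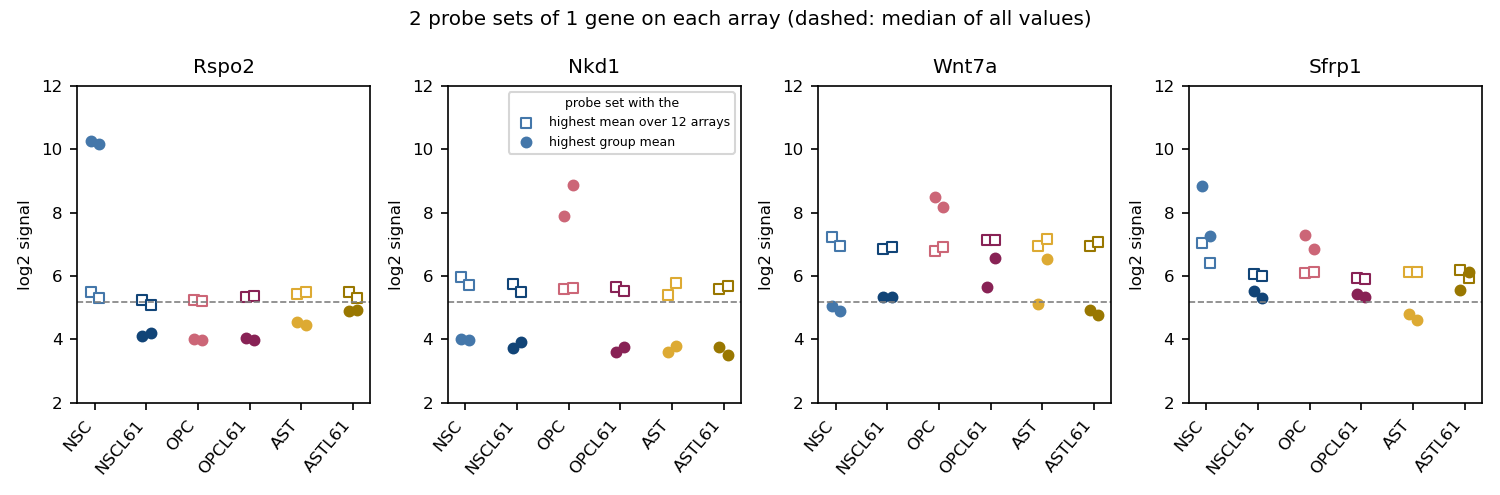
Log2 signal of 2 probe sets of the same gene on each array, for Rspo2, Nkd1, Wnt7a and Sfrp1, with open squares for the probe set brightest on average, filled circles for the one with the highest group mean, and a dashed line at 5.183. The squares run from 5.09 to 5.51 for Rspo2 and from 5.41 to 5.98 for Nkd1, while the circles are high in NSC for Rspo2 and in OPC for Nkd1 and Wnt7a.

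The NSCL61 and OPCL61 changes shared 10 genes past the threshold, 47.6% of the 21 in NSCL61 and 55.6% of the 18 in OPCL61. Over all genes, 2769 were shared, 57.2% and 44.8% of the 2 lists. With the probe sets used, Wnt7b, Lgr6, Dkk2 and Notum rose in both lines, and Lrp6, Ror2 and Lgr5 fell in both. Fzd6, Fzd7 and Fzd8 fell in NSCL61 and rose in OPCL61. Except for Wnt7b, Lgr6 and Fzd8, the dependence on single arrays given above for each gene applies to these calls. Lgr5 lay under 5.183 on the NSC and NSCL61 arrays. The direction was the same for 70% of the shared genes, against 73.2% over all genes. A direct test of the OPC change against the NSC change passed for 20 of the 42 genes, beside 37.8% of all genes, 14 of them with the higher change in OPC. The astrocyte change differed from the stem cell change for 12 genes, beside 25.3%, with the higher change in astrocytes for 10. It differed from the precursor change for 11, beside 35.3%. Wnt7b, Rspo3, Lgr6 and Lrp6 were among both of these last lists.

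**Figure D5:**
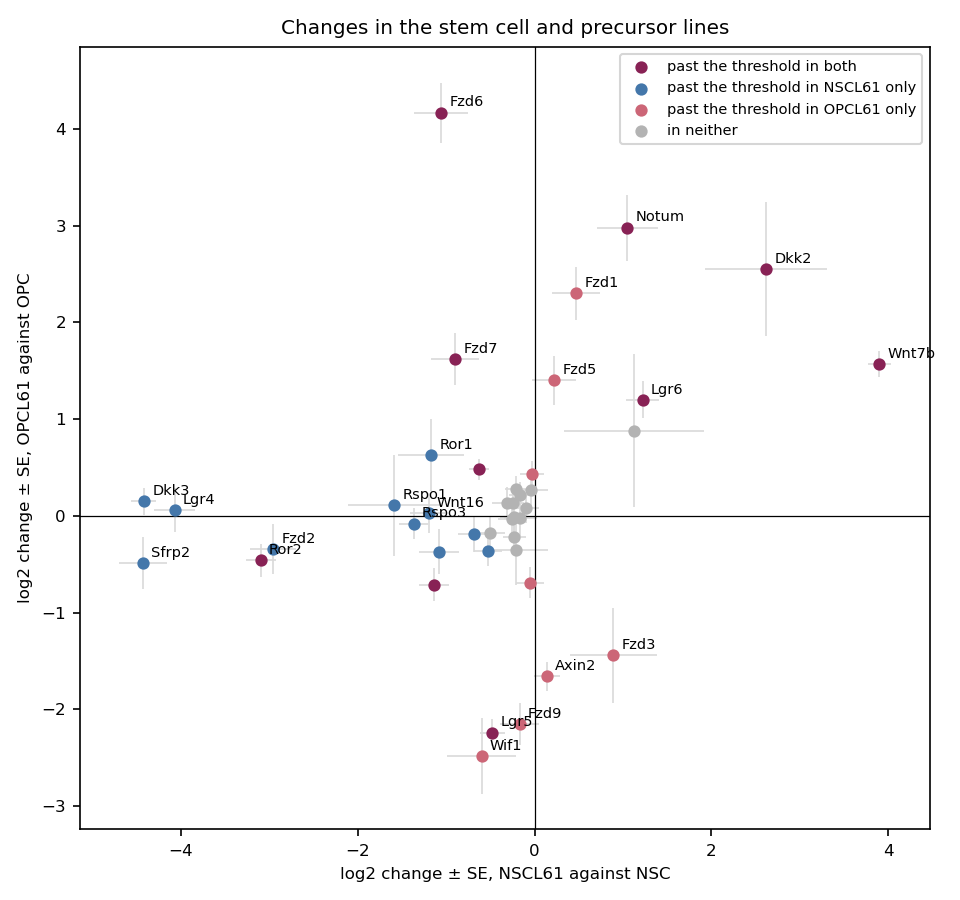
Change in NSCL61 against NSC (horizontal axis) and in OPCL61 against OPC (vertical axis) for the 42 tested genes, as log2 differences with standard errors, coloured by the comparison in which a gene passed. The 4 genes that rose in both lie in the upper right, and Fzd6, Fzd7 and Fzd8 lie in the upper left.

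The parents were compared to ask how the cell types differed without HRasL61. Wnt16, Rspo1, Ror1 and Sfrp2 were tested only through NSC, and Lgr5 and Wif1 only through OPC. For these genes the filter favours calls with that group higher. OPC differed from NSC in 27 of the 42 genes, 6 higher and 21 lower, beside 27.1% higher and 24.3% lower over all genes. Higher in OPC were Fzd3 by 4.28 ± 0.49, Fzd9, Lgr5, Wif1, Wnt7b and Axin2. The falls included Fzd6 at -4.60 ± 0.31 (adjusted p = 2.07e-06), Dkk3 at -4.53 ± 0.14, Lgr4 at -3.50 ± 0.23, Fzd7 at -2.93 ± 0.27, Dkk2 at -2.61 ± 0.69, Fzd5 at -2.52 ± 0.25 and Notum at -1.96 ± 0.34. For Dkk2 this was -3.98 without NSC replicate 1 and -1.23 without NSC replicate 2, and the call was lost without OPC replicate 2 (adjusted p = 0.0537). Of the 27 calls, 19 were kept without any 1 array. At an unadjusted p of 0.05 by limma, AST was lower than NSC in 17 genes and higher in 0, 40.5% of the set against 40.6% of all genes. At the adjusted threshold, AST differed from NSC in 15 genes, 15 lower and 0 higher by limma, beside 15.4% higher and 15% lower over all genes. Among these were Fzd7 at -3.41 ± 0.27 (adjusted p = 4.71e-05), Lgr4 at -3.06 ± 0.23, Fzd5 at -1.91 ± 0.25, Ror1 at -1.65 ± 0.37 and Fzd1 at -1.37 ± 0.27. Ror1 was at -0.96 there without NSC replicate 1, and its call was lost without AST replicate 2 (adjusted p = 0.0592). That count of 15 was smaller without AST replicate 2, and so was the share of all genes called. OPC against AST gave 7 higher and 9 lower, beside 26% and 25.7% over all genes, with Fzd3 by 3.82 ± 0.49, Lgr5 by 2.05 ± 0.14 and Fzd6 at -4.28 ± 0.31 among them.

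The lines were also set against each other. OPCL61 and NSCL61 differed in 7 of 42, beside 26.6% of all genes, where OPC and NSC had differed in 27, beside 51.4%. These 7 were Fzd1, Fzd2, Fzd3 and Ror2, higher in OPCL61, and Wnt7b, Fzd5 and Dkk2, lower. Dkk2 had the largest gap, at -2.68 ± 0.69 (adjusted p = 0.0189). Without either NSCL61 array Fzd1, Fzd2, Fzd3 and Dkk2 were lost, and the share of all genes called was smaller too. ASTL61 differed from NSCL61 in 14, beside 32.7%, led by Dkk2 at -4.60 ± 0.69 and Wnt7b at -3.77 ± 0.13 (adjusted p = 1.87e-07). OPCL61 differed from ASTL61 in 13, beside 36.7%, with Wnt7b 3.01 ± 0.13 higher and Rspo3 at -1.73 ± 0.16.

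A second list held 71 further genes of the pathway, among them its intracellular machinery, of which 70 had a value and 58 were tested. In NSCL61, 11 of the 58 rose and 18 fell, beside 20.7% higher and 17.1% lower over all genes. In OPCL61 9 rose and 25 fell, beside 24.5% and 23.8%, and in ASTL61 0 rose and 0 fell by limma, beside 0.0235% and 0%. At an unadjusted p of 0.05 by limma, 4 were higher and 1 lower in ASTL61, beside 7.34% of all genes in either direction. The largest rises in NSCL61 were Apcdd1, a membrane inhibitor of Wnt signalling and a target, by 2.63 ± 0.57 (adjusted p = 0.00551), the TCF kinase Tnik by 2.33 ± 0.28 and the target transcription factor Sp5 by 2.33 ± 0.20. Sp5 had 4.57 and 4.61 in NSC, 6.56 and 7.27 in NSCL61, and 4.43 to 4.72 on the other 8 arrays, so NSCL61 alone lay above 5.183. The largest falls were the secreted target Ccn4 at -4.83 ± 0.37 (adjusted p = 1.14e-05), the collagen triple helix protein Cthrc1 at -3.54 ± 0.63 and the glypican Gpc6 at -3.25 ± 0.20.

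In OPCL61 the largest rises of that second list were Ccn4 by 2.56 ± 0.37 (adjusted p = 3.70e-04), Apcdd1 by 1.77 ± 0.57 and the polarity gene Vangl1 by 1.14 ± 0.11. Apcdd1 had 8.06 and 7.88 in OPC and 8.62 and 10.86 in OPCL61, and its rise was 0.65 without OPCL61 replicate 2 (adjusted p = 0.108) and 2.88 without OPCL61 replicate 1. Its call was also lost without either OPC array (0.0783 and 0.112). Ccn4 thus fell in NSCL61, from 10.87 and 10.60 to 5.81 and 6.0, and rose in OPCL61, from 5.42 and 4.41 to 7.61 and 7.34. The largest falls were the receptor Tnfrsf19, a Wnt target, at -3.48 ± 0.41 (adjusted p = 1.09e-04), Lrp4, a relative of Lrp6, at -2.76 ± 0.24 and the Dishevelled-binding Dact1 at -2.04 ± 0.25. Tnfrsf19 had 8.89 and 9.05 in OPC, 6.14 and 4.83 in OPCL61, and 4.30 to 5.29 on the other 8 arrays. It was high in OPC, like Axin2, Lgr5 and the second Nkd1 probe set. Lrp4 had 6.41 and 6.92 in OPC, 4.22 and 3.59 in OPCL61, and 3.38 to 4.73 on the other 8 arrays. Lrp4 was thus tested only through OPC, and the filter favours a fall from that group. Ctnnb1, which encodes beta-catenin and was picked after its values were seen, was at -0.02 in NSCL61 and at -0.36 in OPCL61 (adjusted p = 0.0169), a call lost without either OPC array or OPCL61 replicate 2 (0.0621, 0.0662 and 0.0878). The count of 34 in OPCL61 was smaller without either OPC array, and so was the share of all genes called.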

How the data were processed

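The values are log2 signals per probe set as deposited by the authors, from biotin-labelled oligonucleotide arrays, with the way they were normalised not given in the sources used here. Medians per array ranged from 5.157 to 5.211. The table holds 45101 probe sets, of which 34958 have 1 gene symbol, 932 have several and 9160 are unnamed here, apart from 64 controls. Each gene was read from its 1-symbol probe set with the highest mean, then tested where a group mean exceeded 5.183. All 12 arrays entered a single limma fit (version 3.58.1, R 4.3.3) of 6 group means with empirical Bayes moderation, 6 residual degrees of freedom and Benjamini-Hochberg adjustment over 12788 genes at 0.05, tests being 2-sided. Single probe sets were adjusted over the 23093 tested. The fit was tested on simulated data. Precision is limited by 2 arrays a group.

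The genes, lists and tests were chosen with earlier results of these data known. Every Wnt pathway gene could be named, with all array values where it passed in a line or parental comparison, and the second list names the 3 largest rises and falls per line. Others are said to have been picked after their values were seen. Coordinates are those of RefSeq promoter windows. Alternatives are given in the closing section.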

Additional observations from a re-analysis of the deposited data

Results flagged for a closer look

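Groups of 2 arrays are too small for a test of a single array that stands apart. What set the following genes apart is that their change in a line against its parent differed between cell types, by limma's test of the difference of the changes, adjusted over all 12788 genes. Where a parent lay under 5.183, a fall could not show in full, so such a difference may partly restate the gap between parents. Such means included 3.73 in OPC and 3.32 in AST for Sfrp2, and 4.68 and 4.81 for Wnt16. They also included 4.96 in OPC for Dkk3, 4.71 in NSC and 4.58 in AST for Lgr5, and 3.58 and 2.67 for Wif1. No explanation was weighed.

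The change in OPCL61 minus that in NSCL61 passed for 20 of the 42 genes, with adjusted p-values from 6.51e-07 (Dkk3) to 0.0272 (Fzd5). It was above 0 for 14 of them: 5.23 for Fzd6, 4.57 for Dkk3, 4.13 for Lgr4, 3.94 for Sfrp2, 2.64 for Ror2, 2.62 for Fzd2, 2.53 for Fzd7, 1.93 for Notum, 1.83 for Fzd1, 1.80 for Ror1, 1.29 for Rspo3, 1.23 for Wnt16, 1.18 for Fzd5 and 1.11 for Fzd8. For Fzd6, Fzd7 and Fzd8 the changes passed in both lines with opposite signs. It was below 0 for 6: -2.34 for Fzd3, -2.33 for Wnt7b, -1.99 for Fzd9, -1.87 for Wif1, -1.79 for Axin2 and -1.76 for Lgr5. Leaving out 1 array at a time kept 16 of the 20 and lost Fzd3, Fzd5, Ror1 and Wif1.

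The change in ASTL61 minus that in NSCL61 passed for 12 genes, all of which were kept without any 1 array. It was 4.94 for Dkk3, 4.60 for Sfrp2, 4.08 for Lgr4, 3.18 for Ror2, 2.71 for Fzd2, 2.39 for Rspo3, 1.89 for Fzd7, 1.32 for Wnt16, 1.23 for Lrp6 and 0.98 for Fzd8. It was -3.93 for Wnt7b and -1.56 for Lgr6. Both of these lists use the NSC arrays, so they are not independent of each other.

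The change in OPCL61 minus that in ASTL61 passed for 11 genes. It was 4.07 for Fzd6, 2.25 for Notum, 1.59 for Wnt7b, 1.54 for Lgr6 and 1.26 for Fzd5. It was -2.62 for Wif1, -2.15 for Fzd9, -2.09 for Lgr5, -1.76 for Axin2, -1.10 for Rspo3 and -0.79 for Lrp6. Leaving out 1 array at a time kept 9 of the 11 and lost Fzd5 and Lrp6.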

How the results depend on the processing

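The alternatives, 1 at a time, were quantile normalisation, centring arrays on their medians, averaging the probe sets of a gene, no filter, a stricter filter at 7.562 (the 75th percentile of the table), only the groups compared, a trended robust prior, an absolute log2 change of at least 1, a replicate block, each array left out and, chosen after seeing the data, the probe set with the highest group mean. No gene that passed in a line comparison changed direction: of 284 refits of the 21 NSCL61 genes 245 kept the call and 39 lost it, and of 243 refits of the 18 OPCL61 genes 219 kept it and 24 lost it. Of the genes that had not passed, 12 of 21 in NSCL61, 10 of 24 in OPCL61 and 24 of 42 in ASTL61 changed sign under some alternative. Of these only Wnt7a passed with the other sign, going from 0.28 to -2.23 in OPCL61 with the probe set of the highest group mean and to -0.58 with averaged probe sets. Scaling moved the median of all genes by at most 0.035.

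Counts of Wnt pathway genes past the threshold moved as follows. The filter at the 75th percentile, under which fewer of them were tested, gave 13 of 21 in NSCL61 against NSC, 11 of 18 in OPCL61 against OPC, 15 of 27 in OPC against NSC, 7 of 16 in OPC against AST and 9 of 14 in ASTL61 against NSCL61. It gave 13 of 20 and 6 of 11 for the OPC change against the NSC and AST changes. A log2 change of at least 1 left 9 of 16 in OPC against AST, 9 of 14 in ASTL61 against NSCL61 and 8 of 13 in OPCL61 against ASTL61, and of the second list 19 of 29 in NSCL61 and 15 of 34 in OPCL61. Fitting only the groups compared gave 9 of 15 in AST against NSC, where the cause was not tested. The probe set with the highest group mean gave 1 in ASTL61 against AST in place of 0, beside 0.0467% of all genes. With each array left out in turn the counts ran from 12 to 21 in NSCL61 against NSC (12 without either NSCL61 array), 0 to 2 in ASTL61 against AST (2 without ASTL61 replicate 1), 8 to 16 in AST against NSC (8 without AST replicate 2), 3 to 6 in OPCL61 against NSCL61 (3 without either NSCL61 array), and 22 to 27 for the second list in OPCL61 (22 without either OPC array). In each fit named in brackets the share of all genes called moved the same way as the count. A group left with 1 array was assumed to vary like the others.

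The replicate block gave 21 genes in NSCL61 against NSC, 18 in OPCL61 against OPC and 0 in ASTL61 against AST, as without it, and 26 in place of 27 in OPC against NSC, and moved no other count by over 1.5 times. The replicate numbers did not pair the arrays: deviations of same-numbered arrays from their group means correlated at 0.07, 0.02 and -0.03 across genes.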

Other observations

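Of the 42 tested genes, 10 passed in none of 12 comparisons: Wnt2, Wnt4, Wnt5a, Wnt6, Wnt7a, Rspo2, Fzd10, Sfrp4, Sfrp5 and Nkd1. For 4 of these, Wnt5a, Wnt7a, Rspo2 and Nkd1, another probe set passed in at least 1 comparison when tested singly. How many of all 12788 genes passed in none was not counted, so the count of 10 is not a result about the set. By limma, in ASTL61 the genes with an unadjusted p under 0.05, all higher than in AST, were Wnt10a (0.45), Rspo3 (1.02), Fzd1 (1.35), Fzd7 (0.99), Fzd8 (0.35) and Dkk3 (0.52). No test of a further hypothesis was made.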
